A study of Mus musculus with 44 samples.

Results

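Nitric oxide, arginine and itaconate metabolism was followed through 7 genes of mouse bone marrow-derived macrophages (BMDMs): Slc7a2, Ass1, Arg2, Gch1, Nos2, Cybb and Acod1. They were found by gene symbol in 4 tables of RNA-seq read counts, each of which lists 24940 genes. All 7 had 1 row in each table, with the same RefSeq transcript throughout, and all 7 passed the filter on low counts in every table, among 12196 to 13407 genes tested.

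The study asked how the nuclear receptor corepressor NCoR acts when macrophages meet extracellular signals, and the 44 libraries form 22 groups of 2. BMDMs were grown with M-CSF from marrow of C57BL/6 mice aged 8 to 12 weeks and starved of serum before treatment. In the first table, NCoR flox/flox cells (WT) and NCoR flox/flox LysMCre cells (NKO) received vehicle, KLA, poly I:C, IFNβ or IL4 for 6 h, or RANKL for 12 h. The labels call all libraries macrophages, but the names of the RANKL libraries read Osteoclast where the others of that table read BMDM, and the culture they came from is not settled by the labels. KLA is Kdo2 lipid A, an agonist of the bacterial lipopolysaccharide receptor TLR4, poly I:C is a double-stranded RNA analogue sensed by TLR3, and RANKL drives osteoclast formation. In the other tables treatment with vehicle or KLA lasted 6 h where a label gives the time. The labels of the KLA-treated Pgc1b flox/flox LysMCre libraries do not give it. The second table holds wild-type cells with vehicle, KLA, or KLA and RGFP966, an inhibitor of the histone deacetylase HDAC3. The Pgc1b table compares Pgc1b flox/flox cells with Pgc1b flox/flox LysMCre cells, Pgc1b being a transcriptional coactivator, with vehicle or KLA. The TBK1i table holds wild-type cells with the solvent DMSO alone, DMSO and KLA, or KLA and an inhibitor of the kinase TBK1 (GSK8612 per the study's methods). Per the study's methods, both inhibitors were added when serum starvation began, before KLA. No group received an inhibitor without KLA, so an effect of the inhibitor before KLA cannot be told apart from one during it. LysMCre is driven by the lysozyme M promoter and deletes in cells of the myeloid lineage. Both genotypes of a pair thus carry the floxed alleles and differ by the Cre transgene as well as by the deletion. Nothing in the labels says whether the libraries of a group came from separate mice or cultures, so the p-values below measure only the spread between these libraries, which may be technical.

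Classically activated macrophages take up arginine and oxidise it to nitric oxide and citrulline through the inducible synthase NOS2, which needs tetrahydrobiopterin as cofactor. Citrulline can be rebuilt into arginine by argininosuccinate synthase and lyase, whereas arginases divert arginine to ornithine and urea. The same cells make superoxide with the phagocyte NADPH oxidase and divert cis-aconitate of the tricarboxylic acid cycle to itaconate, an antibacterial and immunoregulatory metabolite.

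In mm10, the tables place Slc7a2 at chr8:40862367-40922070, Ass1 at chr2:31470270-31520670, Arg2 at chr12:79130788-79156301 and Nos2 at chr11:78920787-78960226, all on the plus strand. Acod1 lies at chr14:103047012-103056573 on the plus strand, and Gch1 at chr14:47153895-47189413 and Cybb at chrX:9435254-9469324 on the minus strand. Counts cover the exons of 1 RefSeq transcript a gene, from 1407 bp for Arg2 to 7706 bp for Slc7a2. The row of Ass1 is not unique to that gene: the tables place the pseudogene Gm5424 inside the same interval, and its count was 85.71% to 100% of that of Ass1 in each of the 44 libraries (median 100%). The GENCODE M21 annotation has Gm5424 as a processed pseudogene on chromosome 10, at chr10:62071123-62072362. Reads counted for Ass1 and for Gm5424 are therefore the same reads and were not added together. At Arg2, the last exon overlaps the 3′ end of Vti1b on the opposite strand (chr12:79156017-79172458), and an antisense transcript, Gm48780, lies inside the gene. An antisense RNA, Gm26584, overlaps the start of Slc7a2. The table headers name no strand option although the study's methods describe strand-specific reads, so the low counts of Arg2 are uncertain.

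Of the promoter windows in the RefSeq table (GRCm38.p6, 250 bases before to 50 after the annotated start), 4 matched a member, those of Acod1, Ass1, Gch1 and Cybb. Each was searched on both strands for 5 motifs: the NFκB site, the interferon-type element (GAAA, any 2 bases, GAAA), the STAT-type palindrome TTCNNNGAA, the AP-1 element TGANTCA and the C/EBP-type element TTGCNNAA, none of which contains another. Among all 32851 promoters of the table, 4.51% held the NFκB site, 3.44% the interferon-type element, 8.3% TTCNNNGAA, 7.81% TGANTCA and 10.8% TTGCNNAA. The windows of Gch1 and Cybb are printed because they hold the matches, and that of Acod1 because it belongs to the member with the highest level after KLA. Each runs 5′ to 3′ on the gene's own strand, with matches in capitals.
Gch1, chr14:47189364-47189663, minus strand: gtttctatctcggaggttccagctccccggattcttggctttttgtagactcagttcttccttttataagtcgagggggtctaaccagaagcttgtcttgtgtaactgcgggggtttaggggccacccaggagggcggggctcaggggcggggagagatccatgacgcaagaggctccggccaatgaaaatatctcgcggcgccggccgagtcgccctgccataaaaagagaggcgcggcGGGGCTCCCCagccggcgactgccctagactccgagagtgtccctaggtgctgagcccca
Cybb, chrX:9469275-9469574, minus strand: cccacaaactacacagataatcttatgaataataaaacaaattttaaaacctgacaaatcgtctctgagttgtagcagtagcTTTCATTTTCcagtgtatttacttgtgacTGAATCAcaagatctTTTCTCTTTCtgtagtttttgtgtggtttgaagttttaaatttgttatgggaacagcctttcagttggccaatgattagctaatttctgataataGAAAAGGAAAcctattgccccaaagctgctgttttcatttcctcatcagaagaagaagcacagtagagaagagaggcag
Acod1, chr14:103046762-103047061, plus strand: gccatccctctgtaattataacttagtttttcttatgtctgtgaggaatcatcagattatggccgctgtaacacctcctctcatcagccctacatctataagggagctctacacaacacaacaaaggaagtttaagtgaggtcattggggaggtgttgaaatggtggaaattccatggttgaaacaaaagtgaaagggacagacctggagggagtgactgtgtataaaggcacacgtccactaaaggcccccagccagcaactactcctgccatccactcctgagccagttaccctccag
Counting the start site as base 1, with no base 0, Gch1 held 1 NFκB site at -10 to -1. The window of Cybb held 3 copies of the interferon-type element, at -168 to -159, -124 to -115 and -29 to -20, and 1 TGANTCA at -139 to -133. No match to the 5 motifs stood in the windows of Acod1 or Ass1, which says only that these letters are not in 300 bases.

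Libraries held 8.323 to 16.78 M gene counts (M, 1e6 counts), and 3 counts, taken as the limit of detection, equalled 0.1407 to 0.4999 CPM (counts per 1e6, scaled by TMM). All 8 macrophage markers were above 1 CPM in every group. The WT and NKO RANKL libraries stood apart in the marker lists: all 8 neutrophil markers were above 1 CPM there (summed level 1304 to 1832 CPM, elsewhere at most 22.81 CPM with Ly6g at 0), the fibroblast markers summed to 194.8 to 326.3 CPM, and the osteoclast markers were lowest in WT RANKL cells (247.4 to 255.3 CPM). Ncor1, the targeted gene, stood at 49.4 to 64.96 CPM in the 12 NKO libraries and 133 to 215 CPM in the 12 WT libraries, and was lower in NKO under each treatment, with log2 changes of -1.41 to -1.78. Library names carry date stamps, and the WT KLA and NKO KLA libraries bear different stamps from each other and from the remaining 6 h libraries. The NKO KLA names also carry other initials than the remaining libraries, and the word polyA, which those names lack. Xist and Y-linked counts further show male cells in NKO KLA and female cells in the other 22 libraries of that table. Thus genotype, stamp, sex and these differences of name cannot be told apart for NKO against WT at KLA. The other 5 contrasts of the genotypes lie within a stamp. The KLA response crosses stamps in the NCoR table and lies within a stamp in the other 3, and RANKL libraries differ from vehicle in stamp, in duration and in the cell their names give, none of which can be told apart from the ligand. WT vehicle was the group whose replicates differed most beyond sampling noise. In these bulk samples, fewer cells of a type and less RNA per cell cannot be told apart.

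In resting WT cells, Cybb was by far the most abundant member. Per kilobase of transcript, which allows genes to be compared, the mean level was 314 CPM per kb for Cybb, 5.85 for Gch1, 2.69 for Acod1, 1.65 for Slc7a2, 1.34 for Ass1, 0.439 for Arg2 and 0.0165 for Nos2. After KLA the order changed to Acod1 at 5258 CPM per kb, Cybb at 1274, Nos2 at 204, Slc7a2 at 131, Gch1 at 90.9, Ass1 at 37.3 and Arg2 at 0.939. In NKO cells with KLA, Nos2 stood second at 898 CPM per kb, above Cybb at 705 and below Acod1 at 3071. The arginase Arg2 was the least abundant member in both KLA groups.

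Comparing each ligand with vehicle asked which signals engage these genes. KLA raised 6 of the 7 members in WT cells, the exception being Arg2, where 25.4% of 13407 tested genes were called higher (a call required an adjusted p under 0.05 in edgeR's quasi-likelihood test and a fold change over 1.5). The median log2 fold change was 4.79 over the members and -0.14 over all tested genes. Fibroblast markers summed to 88.05 to 97.06 CPM in WT vehicle (3 of 6 above 1 CPM, Lum at 0) and 1.310 to 1.500 CPM with KLA (0 of 6, Col1a1 and Col1a2 at 0), and endothelial markers to 7.842 to 8.963 CPM (2 of 5, Tek at 0) and 187.2 to 199.0 CPM (3 of 5, Tek and Emcn at 0). The part of these in the KLA response was not tested. Poly I:C raised the same 6 genes and lowered Arg2, against 22.2% and 25.0% of all genes. RANKL raised 2 (Acod1 and Ass1) in WT cells, with 24.1% of all genes higher, IFNβ raised Ass1, with 4.09% of genes higher, and IL4 raised Slc7a2 and lowered Ass1 and Cybb, with 6.63% higher and 6.46% lower. In NKO cells KLA raised all 7 members (28.4% of all genes), poly I:C raised 6 and lowered none (with 43.1% called in either direction), RANKL raised 4 and lowered 1 (25.3% and 20.0%), IFNβ raised 5 (5.65%) and IL4 raised 1, again Slc7a2 (6.71%).

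**Figure D1:**
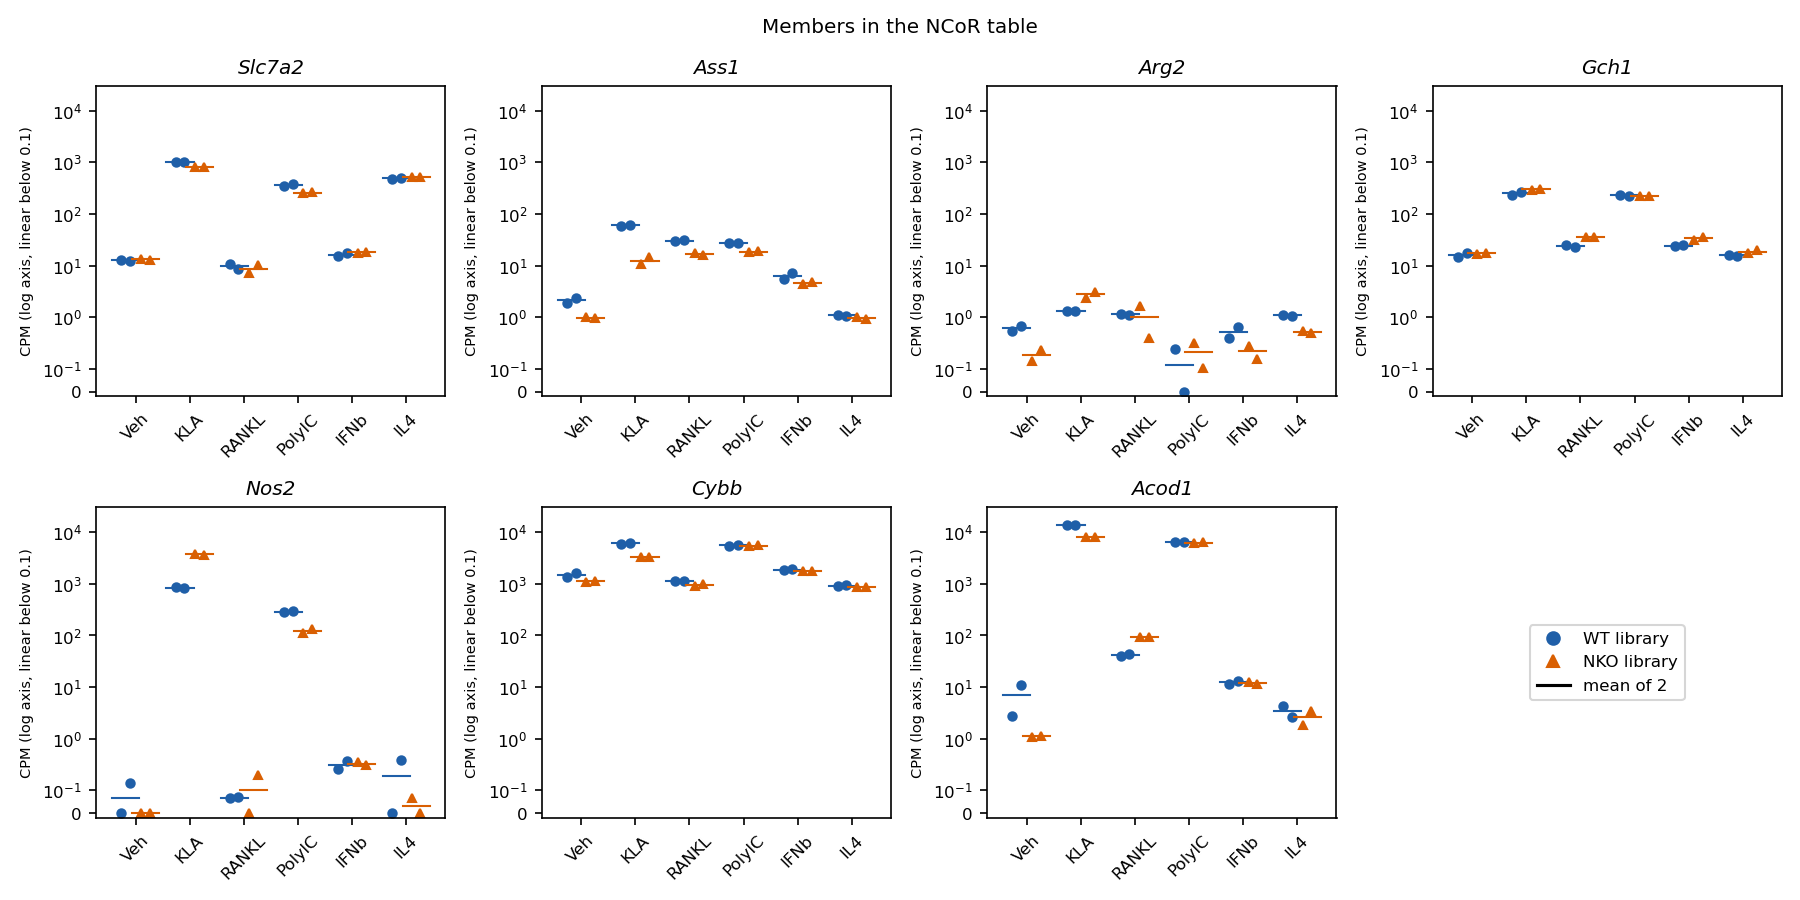
Level of each member in the 24 libraries of the NCoR table, as CPM on a log axis, by treatment and with WT and NKO side by side (points are libraries, 2 a group). Slc7a2 alone rises far above vehicle with IL4, and Nos2 and Acod1 span the widest range. In KLA, Nos2 is higher and Ass1 lower in NKO than in WT.

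Slc7a2, which encodes the cationic amino acid transporter CAT2 that carries arginine into activated macrophages, answered KLA, poly I:C and IL4. Its level was 13.1 and 12.4 CPM in WT vehicle libraries, 1003 and 1018 CPM with KLA and 345 and 373 CPM with poly I:C. With IL4 it reached 485 and 490.5 CPM, and no other member rose under that ligand. Against vehicle it rose by 6.31 ± 0.079 (log2, SE) with KLA, 4.82 ± 0.079 with poly I:C and 5.26 ± 0.078 with IL4, and no library of these groups overlapped vehicle. In NKO cells the IL4 change was 5.31 ± 0.077, from 13.5 and 13.00 CPM to 523 and 529 CPM. IFNβ libraries held 15.03 and 17.3 CPM and RANKL libraries 10.6 and 8.72 CPM, neither called against vehicle. Among NKO RANKL libraries (7.05 and 10.2 CPM) the gene was called lower, by 0.63 ± 0.13 on the log2 scale, a call lost without NKO RANKL replicate 1.

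Slc7a1, the related transporter CAT1 present in most cells, behaved differently. It went from 12.5 and 17.4 CPM in WT vehicle to 68.1 and 65.7 CPM with KLA and to 76.3 and 80.6 CPM with RANKL. In that last treatment Slc7a2 was lower, at -0.39 on the log2 scale (edgeR, adjusted p = 0.00234), but under the fold threshold. Its level in WT IL4 libraries was 19.2 and 18.8 CPM.

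Ass1, argininosuccinate synthase, which joins citrulline and aspartate on the way back to arginine, was the member with the broadest response. WT vehicle libraries held 1.93 and 2.39 CPM, KLA 59.3 and 60.99 CPM, RANKL 30.3 and 30.8 CPM and poly I:C 27.3 and 27.9 CPM. IFNβ libraries lay in between at 5.51 and 7.20 CPM. All of these lay above vehicle without overlap, with log2 changes of 4.79 ± 0.16 with KLA, 3.82 ± 0.16 with RANKL, 3.67 ± 0.17 with poly I:C and 1.54 ± 0.21 with IFNβ. IL4 libraries held 1.10 and 1.08 CPM, lower than vehicle by 0.98 ± 0.32 (adjusted p = 0.0131). That call is lost without WT vehicle replicate 2 or without either IL4 library. In NKO cells Ass1 rose with the same 4 ligands, from 1.00 and 0.970 CPM to 10.6 and 14.5 with KLA, 17.4 and 16.1 with RANKL, 18.1 and 19.4 with poly I:C and 4.32 and 4.88 with IFNβ, so that KLA, the strongest inducer in WT, ranked behind poly I:C and RANKL in NKO.

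Arg2, the mitochondrial arginase, stayed rare in every group. Its highest WT level in the NCoR table was 1.31 and 1.33 CPM with KLA, against 0.550 and 0.684 CPM in vehicle, a difference that did not pass the test (log2 1.09 ± 0.60, adjusted p = 0.097). Poly I:C libraries held 2 and 0 counts, which is under the limit of 3 and called at least 1.72-fold lower than vehicle (adjusted p = 0.0354), a call lost in DESeq2 (adjusted p = 0.0693) and when single libraries are left out. Arg1, the cytosolic arginase of IL4-activated cells, was absent or nearly so outside IL4 and RANKL, at most 0.67 CPM. It reached 83.8 and 67.7 CPM in WT and 139 and 143 CPM in NKO cells with IL4, and 3.20 and 2.23 against 11.2 and 16.2 CPM with RANKL. Arg1 was thus higher in NKO than in WT under both, by 0.90 ± 0.095 and 2.31 ± 0.21 on the log2 scale, without overlap.

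Gch1, GTP cyclohydrolase 1, the first and rate-limiting enzyme of tetrahydrobiopterin synthesis, moved with the Toll-like receptor ligands. Its level went from 14.9 and 17.5 CPM in WT vehicle to 236 and 267 CPM with KLA and 238 and 220.2 CPM with poly I:C. The KLA and poly I:C libraries overlapped each other and lay far above vehicle, by 3.96 ± 0.078 and 3.82 ± 0.077 on the log2 scale. NKO cells gave 296 and 305 CPM with KLA and 224 and 221 CPM with poly I:C. With RANKL it was 24.7 and 22.5 CPM in WT and 36.1 and 35.7 CPM in NKO, and only the NKO change against vehicle was called (1.06 ± 0.093). IFNβ gave 23.5 and 24.9 and 31.7 and 35.4 CPM, again called in NKO only (0.96 ± 0.090), and the difference between these genotype responses was not called for either ligand (log2 0.52 and 0.38). IL4 libraries held 16.4 and 15.1 CPM, a range that overlaps vehicle.

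Nos2, the inducible nitric oxide synthase, was at or near 0 outside KLA and poly I:C. WT vehicle libraries held 0 and 2 counts and the NKO vehicle libraries 0 and 0. KLA brought it to 878 and 813 CPM in WT and 3819 and 3608 CPM in NKO, and poly I:C to 283 and 296 and 109 and 133 CPM. Counted against the limit of 3 counts a library, the rise with KLA was at least 4108-fold in WT and at least 19218-fold in NKO, and that with poly I:C at least 1407-fold and 627-fold. The remaining 8 groups of the NCoR table did not exceed 0.384 CPM in any library. Among these, NKO IFNβ (0.354 and 0.305 CPM) was called higher than NKO vehicle by at least 1.71-fold from a few reads a library, and the call is lost without any single library of the 2 groups.

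Cybb, the catalytic gp91phox subunit of the phagocyte NADPH oxidase, started high and rose further. WT vehicle libraries held 1328 and 1649 CPM, KLA 6009 and 6056 CPM and poly I:C 5489.6 and 5602 CPM. Both ligands lay above vehicle without overlap, by 2.02 ± 0.059 and 1.90 ± 0.058 on the log2 scale. IFNβ gave 1809.7 and 1903 CPM, above both vehicle libraries but under the fold threshold (0.32 ± 0.057). In NKO cells, IFNβ raised Cybb from 1082 and 1135 to 1739.9 and 1745 CPM (0.65 ± 0.057). IL4 lowered it in WT, to 901 and 933 CPM (-0.70 ± 0.057, and -0.54 without WT vehicle replicate 2, which is under the fold threshold), and NKO IL4 libraries held 858 and 869 CPM. RANKL libraries, at 1118 and 1123 CPM in WT, were not called.

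Acod1, the aconitate decarboxylase that makes itaconate, had the highest level after KLA of the 7. WT vehicle libraries disagreed at 2.82 and 11.1 CPM, and KLA libraries reached 13529 and 13611 CPM. With poly I:C the level was 6421 and 6526 CPM, with RANKL 40.7 and 44.6 CPM and with IFNβ 11.7 and 13.1 CPM. The log2 changes were 10.93 ± 0.27, 9.86 ± 0.26 and 2.61 ± 0.29 in that order of KLA, poly I:C and RANKL. For IFNβ the change of 0.83 ± 0.35 was not called (adjusted p = 0.114), and it was 2.13 and called without WT vehicle replicate 2, the higher of the vehicle pair. NKO vehicle libraries held only 1.08 and 1.14 CPM, and NKO libraries reached 7883 and 7969.9 CPM with KLA, 6046 and 6400.1 with poly I:C, 93.99 and 92.6 with RANKL and 12.3 and 11.6 with IFNβ. All 4 were called against NKO vehicle, at 12.79, 12.44, 6.38 and 3.42 on the log2 scale. IL4 libraries, 4.25 and 2.69 CPM in WT and 1.85 and 3.40 CPM in NKO, were not called against vehicle by edgeR. DESeq2 called the gene lower in WT (-0.99, adjusted p = 0.0385) and higher in NKO (1.23, adjusted p = 0.0258), and edgeR did so in WT without WT vehicle replicate 1 (-1.68) and in NKO with only the compared groups in the fit (1.23, adjusted p = 0.00208). The RANKL values of Acod1 and Ass1 come from the libraries with the summed neutrophil markers given above, whose part in the result was not tested, and their library names give osteoclasts.

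The KLA response was measured 3 more times in control cells, each within 1 stamp. Beside the WT values above, it was 11.37, 10.87 and 10.90 on the log2 scale for Acod1 in the RGFP966, Pgc1b flox/flox and DMSO controls, where all 7, all 7 and 6 members were called higher against 27.9%, 22.8% and 29.6% of tested genes. Slc7a2 gave 7.57, 7.33 and 7.33, Gch1 4.16, 4.31 and 4.32, and Cybb 2.21, 2.39 and 1.99. For Ass1 the values were 3.96, 3.76 and 3.97. These 4 genes and Acod1 therefore answered KLA in each control set, and Ass1 had its largest value in the NCoR table. Nos2 reached 1345 and 1000.3 CPM in the RGFP966 set, 959 and 876 in Pgc1b flox/flox and 588 and 597 in DMSO, from at most 0.565 CPM in the vehicle libraries. Arg2 was called in the RGFP966 controls (1.21 ± 0.52, lost without any 1 of the 4 libraries, at adjusted p = 0.0541 to 0.15, and in DESeq2, at 0.0681) and in Pgc1b flox/flox (2.83 ± 0.80, lost without KLA replicate 1) but not in DMSO (0.44 ± 0.46), at no more than 2.29 CPM.

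NKO against WT was then compared under each treatment, to see where these genes depend on NCoR. In vehicle, Acod1 was lower in NKO by 2.63 ± 0.58 on the log2 scale and Ass1 by 1.12 ± 0.31 (adjusted p = 0.00556 and 0.00532), 2 of 7 members where 6.21% of genes were called. Both are low-count genes there, and both calls rest on single libraries. With only these groups in the fit, Acod1 had an adjusted p of 0.239. Without NKO vehicle replicate 2 the adjusted p was 0.0525 for Acod1 and 0.0625 for Ass1. Without WT vehicle replicate 2, Acod1 stood at -1.33 and was still called, and Ass1 at -0.96 with an adjusted p of 0.0868. Osteoclast markers summed to 2129 to 2163 CPM in NKO and 957.7 to 1120.0 CPM in WT vehicle libraries, with 5 of 8 above 1 CPM and Calcr at 0 in both, and their part was not tested.

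With KLA, 1 member was higher and 3 were lower in NKO, where 40.0% of all tested genes were called. Nos2 was higher, at 3819 and 3608 against 878 and 813 CPM (2.13 ± 0.078, adjusted p = 4.1e-17). Ass1 was lower, at 10.6 and 14.5 against 59.3 and 60.99 CPM (-2.27 ± 0.13, adjusted p = 6.6e-24). Acod1 and Cybb were lower by 0.78 ± 0.16 and 0.85 ± 0.057. Libraries of the genotypes did not overlap for these genes, and the share of all genes without overlap is not given here. The synthase and the enzyme that recycles its product citrulline were thus called in opposite directions. Gch1 (0.26 ± 0.059, adjusted p = 0.000128) and Slc7a2 (-0.31 ± 0.055, adjusted p = 1.93e-06) were not called because they were under the fold threshold. Arg2 (1.06 ± 0.48, adjusted p = 0.0534) was not called, although it was with only the compared groups in the fit (1.02, adjusted p = 0.0303). Dendritic cell markers summed to 49.34 to 54.39 CPM in NKO KLA libraries, with 4 of 6 above 1 CPM, and to 6.166 to 6.223 CPM in WT KLA with 3 of 6 above 1 CPM and Flt3 at 0. Endothelial markers summed to 76.99 to 85.15 CPM against 187.2 to 199.0 CPM, with Emcn at 0 in both. Fibroblast markers summed to 8.572 to 11.69 CPM in NKO (4 of 6 above 1 CPM) and 1.310 to 1.500 CPM in WT (0 of 6, Col1a1 and Col1a2 at 0), and osteoclast markers to 414.6 to 418.5 against 290.7 to 296.0 CPM, with 6 of 8 above 1 CPM in both and Oscar at 0 in NKO. The part of these markers, of the stamp and of the sex in the genotype difference was not tested.

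Other KLA-treated control groups allow the NKO KLA libraries to be set beside cells of another stamp, and in the Pgc1b flox/flox set beside male cells. A joint fit held the KLA-treated libraries of all tables (11267 genes), with no term for table or stamp. Nos2 in NKO KLA was higher there than in each control group. Against WT KLA, RGFP966-set KLA, Pgc1b flox/flox KLA and DMSO KLA the log2 differences were 2.12, 1.37, 2.01 and 2.61. Called shares of all genes were 42.2%, 45.9%, 36.3% and 40.9%. Ass1 was lower than in each, at -2.29, -1.54, -1.60 and -1.46. Both genes were called in all 4 comparisons, which share the NKO libraries. Acod1 gave -0.79, -0.82, -0.53 and -0.77, and Cybb -0.87, -0.98, -0.56 and -0.89. Neither was called against the male controls, where both were under the fold threshold. Slc7a2 was called lower against the 3 other tables (-0.72, -0.92 and -0.99) and was under the fold threshold against WT KLA (-0.32). Arg2 gave 1.04, 0.96, 0.74 and 1.04, called against all but the Pgc1b flox/flox controls. Gch1 was not called against any control, between 0.060 and 0.24.

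**Figure D2:**
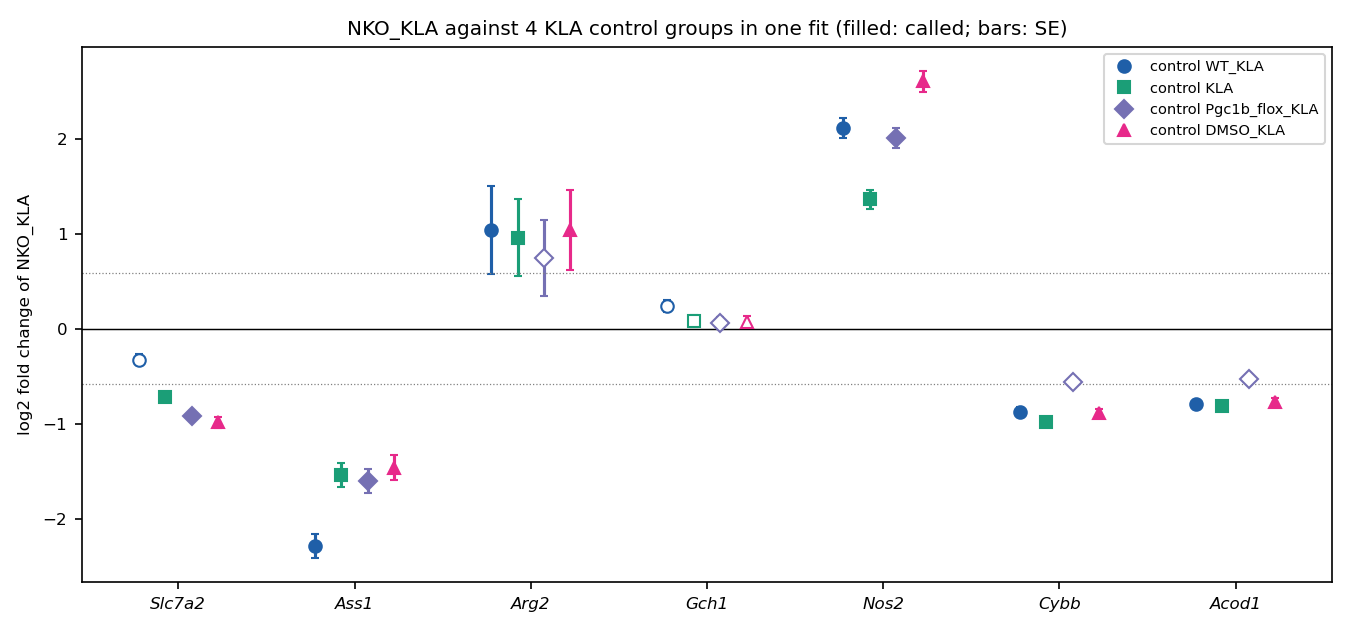
Log2 fold change of NKO KLA libraries against each of 4 KLA-treated control groups in a joint fit, for each member (points, with SE bars; filled points were called; dotted lines mark a 1.5-fold change). Nos2 lies above 0 and Ass1 below 0 for every control, and Gch1 stays within the dotted lines.

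Poly I:C gave a different pattern for Nos2, within 1 stamp and 1 sex. NKO libraries held 109 and 133 CPM and WT libraries 283 and 296 CPM, without overlap, so Nos2 was lower in NKO by 1.26 ± 0.086 (adjusted p = 8.4e-11). It was the only member called there, against 5.93% of all genes. Ass1 (-0.56 ± 0.13) and Slc7a2 (-0.48 ± 0.058) were lower without overlap but under the fold threshold. How many of all genes showed no overlap is not given here. Acod1 (-0.057), Cybb (-0.013) and Gch1 (-0.039) differed by less than 0.1 on the log2 scale. Endothelial markers summed to 138.3 to 164.1 CPM in NKO and 285.4 to 300.6 CPM in WT poly I:C libraries, with Emcn at 0 in both. Osteoclast markers summed to 2453 to 2481 CPM in NKO and 546.7 to 556.8 CPM in WT (5 of 8 above 1 CPM, Calcr at 0 in both), and fibroblast markers to 62.73 to 71.49 against 114.6 to 131.4 CPM (5 of 6, Lum at 0 in both). The part of these markers in the result was not tested.

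The difference between the NKO effects at KLA and at poly I:C, a contrast chosen after the values were seen, was 3.39 ± 0.12 for Nos2 (adjusted p = 2.3e-17), -1.71 ± 0.18 for Ass1 (adjusted p = 3.37e-12), -0.84 ± 0.08 for Cybb and -0.72 ± 0.23 for Acod1. These 4 members were called, against 39.1% of all genes. The limits of the KLA comparison in stamp and sex hold here as well.

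With RANKL, 3 members were called in NKO against WT (2 higher, 1 lower), where 13.2% of all genes were. Acod1 was higher, at 93.99 and 92.6 against 40.7 and 44.6 CPM (1.13 ± 0.21, adjusted p = 0.000787), and Gch1 was higher by 0.60 ± 0.089 (0.54 without WT RANKL replicate 2, under the fold threshold). Ass1 was lower, at 17.4 and 16.1 against 30.3 and 30.8 CPM (-0.87 ± 0.12). The libraries of the genotypes stood clear of each other for these genes, and the share of all genes that did so is not given here. Neutrophil markers also differed in these groups, at 1773 to 1832 CPM in NKO and 1304 to 1435 CPM in WT with all 8 above 1 CPM, and their part was not tested. Under IFNβ and IL4 edgeR called no member, where 3.80% and 4.24% of genes were called. DESeq2 called none there either, and 2 members (Ass1 and Gch1) at IFNβ and 1 (Gch1) at IL4 had an unadjusted p under 0.05 in edgeR. At IFNβ, Gch1 had an unadjusted p of 1.09e-06 and a log2 difference of 0.47 ± 0.086, just under the fold threshold.

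Whether a ligand response itself differed between NKO and WT was read from the interaction term. It was called for 3 members with KLA (Acod1, Arg2 and Ass1), for Acod1 alone with RANKL and with poly I:C, and for none in edgeR with IFNβ or IL4, where 36.9%, 14.2%, 3.24%, 0.604% and 0.604% of all genes were called. At IFNβ 3 members and at IL4 2 had an unadjusted p under 0.05 in edgeR, and DESeq2 called 1 in each, Acod1 (2.59 and 2.23 in edgeR). With KLA, the Acod1 call is lost with only the compared groups in the fit (1.83, adjusted p = 0.195). Nos2 was not called by that term in edgeR but was by DESeq2 (adjusted p = 0.0202), with only the compared groups (0.0186) and with no filter on low counts (0.0248), where its fitted size is no bound since the vehicle libraries held fewer than 3 counts. Each of the Acod1 terms carries the low NKO vehicle level of 1.08 and 1.14 CPM.

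Cells given RGFP966 from the start of serum starvation and then KLA were used to ask what HDAC3 activity contributes. Of the 7 members, 2 were lower and 2 higher with the inhibitor, where 25.4% of tested genes were called. Nos2 fell from 1345 and 1000.3 CPM to 297 and 305 CPM (-1.96 ± 0.18, adjusted p = 0.00098), and Slc7a2 from 1092 and 1096 to 686 and 646 CPM (-0.72 ± 0.055). Both the importer of arginine and the synthase that uses it were thus lower, with no overlap, a share of all genes not given here. Ass1 rose from 29.2 and 29.8 to 44.7 and 45.3 CPM (0.61 ± 0.098, and 0.54, under the fold threshold, with RLE scaling). Slc7a1 also rose, from 40.6 and 41.7 to 67.1 and 63.8 CPM (0.67 ± 0.084). Arg2 went from 1.05 and 1.24 to 2.51 and 2.03 CPM (0.97 ± 0.42, adjusted p = 0.0463), a call lost whenever any 1 of the 4 libraries was left out. Acod1 (0.079) and Cybb (0.052) were not called, nor was Gch1 (-0.20, adjusted p = 0.00335), which was under the fold threshold. RGFP966_KLA replicate 2 carries a later stamp than the rest, and without it, within 1 stamp, Nos2 stood at -1.98, Slc7a2 at -0.67 and Ass1 at 0.60, all still called. Endothelial markers summed to 39.24 to 40.68 CPM with RGFP966 and 121.2 to 144.1 CPM without it, Emcn at 0, and their part was not tested. All 7 members rose over vehicle even in the presence of the inhibitor, against 28.0% of genes.

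**Figure D3:**
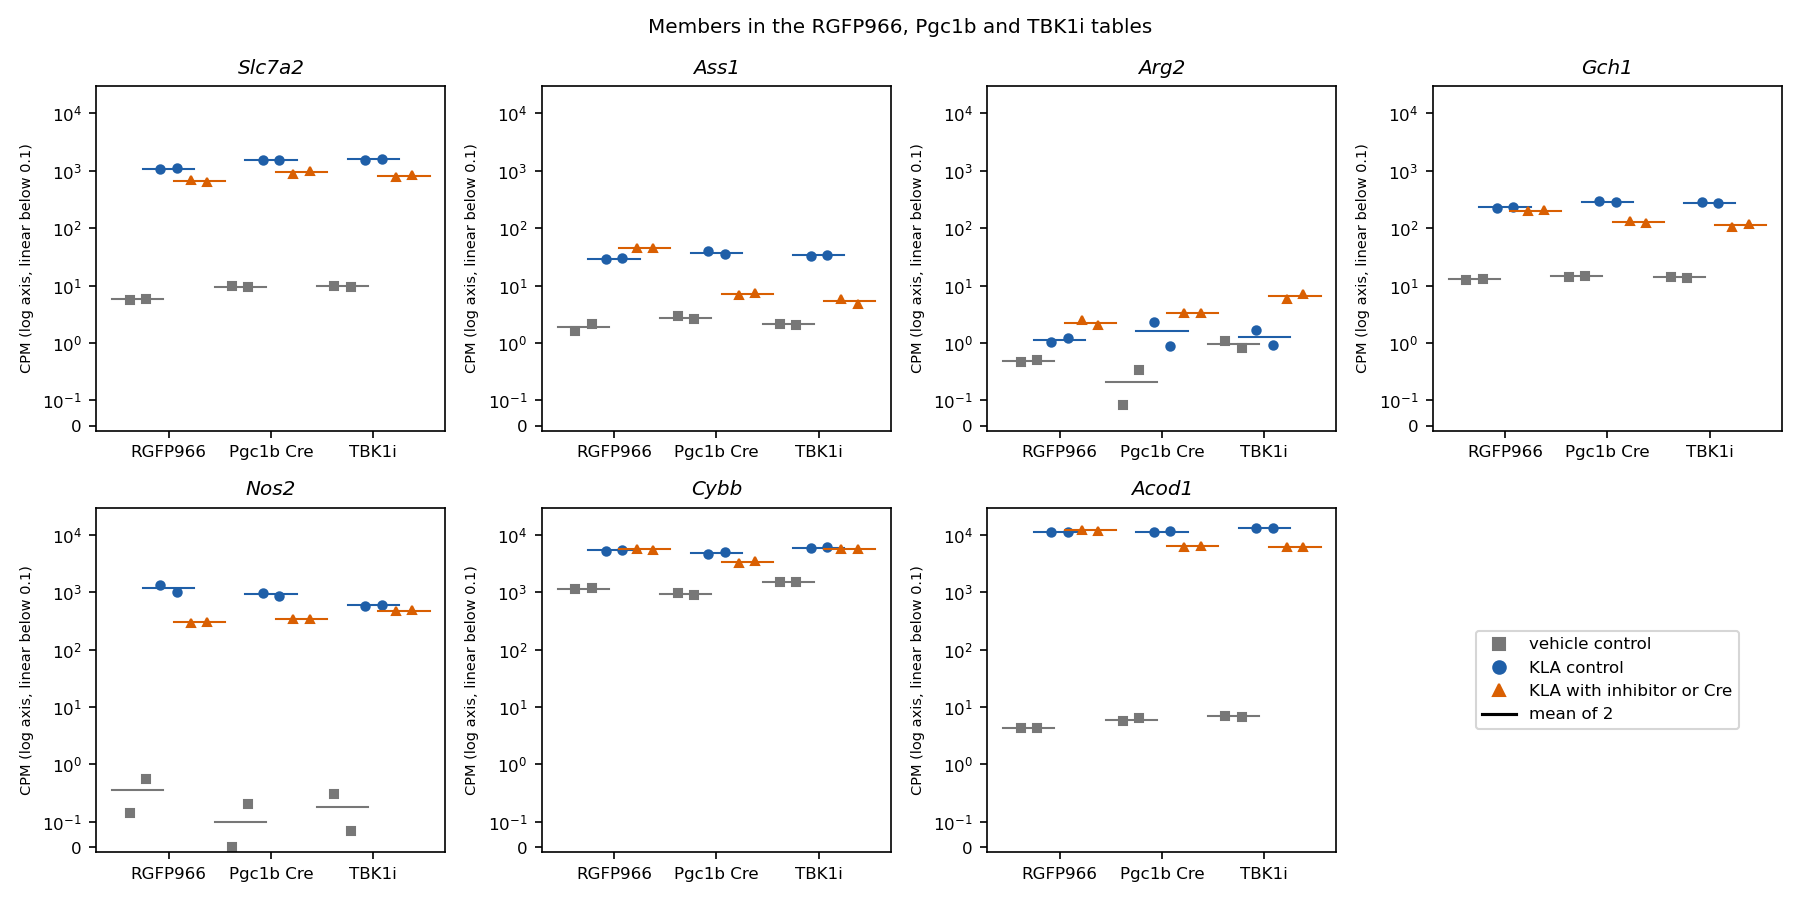
Level of each member in libraries of the RGFP966, Pgc1b and TBK1i tables, as CPM on a log axis, by group (points are libraries, 2 a group). The vehicle group of Pgc1b flox/flox LysMCre cells is not drawn. KLA groups lie above vehicle for all members, except that for Arg2 the DMSO KLA libraries overlap their vehicle. Among the KLA groups Ass1 is lowest in Pgc1b flox/flox LysMCre cells and with the TBK1 inhibitor.

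Loss of Pgc1b was examined by its flox and Cre labels. Ppargc1b itself was not lower in the LysMCre libraries with KLA (10.3 and 8.74 CPM against 7.81 and 6.78), and a count over the whole transcript need not show the loss of single exons. Lyz2, whose locus carries the Cre, was lower (4463 against 8171 CPM on average). The study also examined PGC1β protein in BMDMs of both genotypes by immunoblot, which was not used here. In these counts, the directions below rest on the labels. In vehicle, edgeR called none of the members, where 0.303% of tested genes were called, and Gch1 and Slc7a2 came closest with 0.42 and 0.43 on the log2 scale (adjusted p = 0.0683 and 0.0755). 3 members had an unadjusted p under 0.05 there, and DESeq2 called none.

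KLA raised all 7 members with Cre as well, against 19.2% of genes. Under KLA, 5 of 7 members were lower in the libraries labelled Pgc1b flox/flox LysMCre, against 26.1% of tested genes called. Ass1 was 6.90 and 7.33 CPM with Cre and 40.3 and 34.8 without (-2.40 ± 0.20, adjusted p = 1.55e-12). Nos2 was 338 and 337 against 959 and 876 CPM (-1.44 ± 0.068, adjusted p = 2.97e-19). The genotypes did not overlap for either gene, and the share of all genes without overlap is not given here. For 5 members (Nos2, Acod1, Ass1, Gch1 and Slc7a2) the KLA response itself was smaller with Cre by the interaction term, where 22.8% of genes were called. Gch1 fell from 293 and 281 to 135 and 122 CPM (-1.16 ± 0.078), Acod1 from 11295 and 11491 to 6269 and 6425 CPM (-0.84 ± 0.073), and Slc7a2 from 1527 and 1540.0 to 894 and 1011 CPM (-0.69 ± 0.061, or -0.58 without LysMCre KLA replicate 1, just under the fold threshold). Cybb was also lower without overlap, 3296 and 3567 against 4699.7 and 5102 CPM, but under the fold threshold (-0.51 ± 0.058). Arg2 stood at 3.27 and 3.31 against 2.29 and 0.879 CPM and was not called. Slc7a1 went the other way from Slc7a2, from 48.2 and 58.9 to 102 and 86.7 CPM (0.82 ± 0.11). Endothelial markers summed to 16.51 to 19.28 CPM with Cre and 102.1 to 112.6 CPM without, with Emcn at 0 in both. Osteoclast markers summed to 794.8 to 795.5 against 418.5 to 429.8 CPM, with 6 of 8 above 1 CPM and Calcr at 0 in both. T and NK cell markers summed to 15.02 to 16.07 against 5.932 to 7.286 CPM, with 1 of 7 above 1 CPM in both. The part of these markers was not tested.

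Inhibition of TBK1 before and during KLA treatment lowered 4 members and raised 1, where 33.3% of tested genes were called. Ass1 was 5.82 and 4.74 CPM with the inhibitor and 33.04 and 33.8 with DMSO (-2.65 ± 0.17, adjusted p = 1.08e-54), the largest change of a member in this comparison. Gch1 fell from 282 and 273 to 105 and 118 CPM (-1.32 ± 0.054) and Acod1 from 13042 and 13317 to 6081 and 6079.7 CPM (-1.12 ± 0.031). Slc7a2 was lower as well, with 785 and 845 against 1537 and 1608 CPM (-0.95 ± 0.037), while Slc7a1 rose from 61.2 and 63.4 to 97.6 and 99.03 CPM (0.66 ± 0.074). Nos2 stood at 472 and 491 against 588 and 597 CPM. Its libraries did not overlap and its adjusted p was 5.19e-13, but the change of -0.30 ± 0.041 was under the fold threshold. Cybb (-0.086 ± 0.032) was not called either. The sign of both depends on the scaling: per raw library total, Nos2 was 467 and 484 with the inhibitor against 453 and 456 CPM with DMSO, and Cybb 5623 and 5585 against 4508 and 4724 CPM, both higher with it. Endothelial markers summed to 3.810 to 5.075 CPM with the inhibitor and 122.9 to 130.5 CPM without it, with Emcn at 0 in both. Osteoclast markers summed to 1050 to 1063 against 658.9 to 662.4 CPM, with 6 of 8 above 1 CPM and Calcr at 0 in both. Fibroblast markers summed to 28.53 to 31.28 against 46.29 to 48.95 CPM, with 4 and 5 of 6 above 1 CPM. The part of these markers was not tested.

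Arg2 was higher with TBK1 inhibition, at 5.82 and 7.22 CPM (58 and 64 counts) against 1.66 and 0.926 CPM (15 and 8 counts), a change of 2.31 ± 0.35 (adjusted p = 1.82e-10). This was its highest level in the 22 groups. Vti1b, whose 3′ end overlaps Arg2 on the other strand, was not called in that comparison (0.15, adjusted p = 0.119). All 7 members were still higher with KLA and inhibitor than in the DMSO vehicle, against 26.8% of genes.

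**Figure D4:**
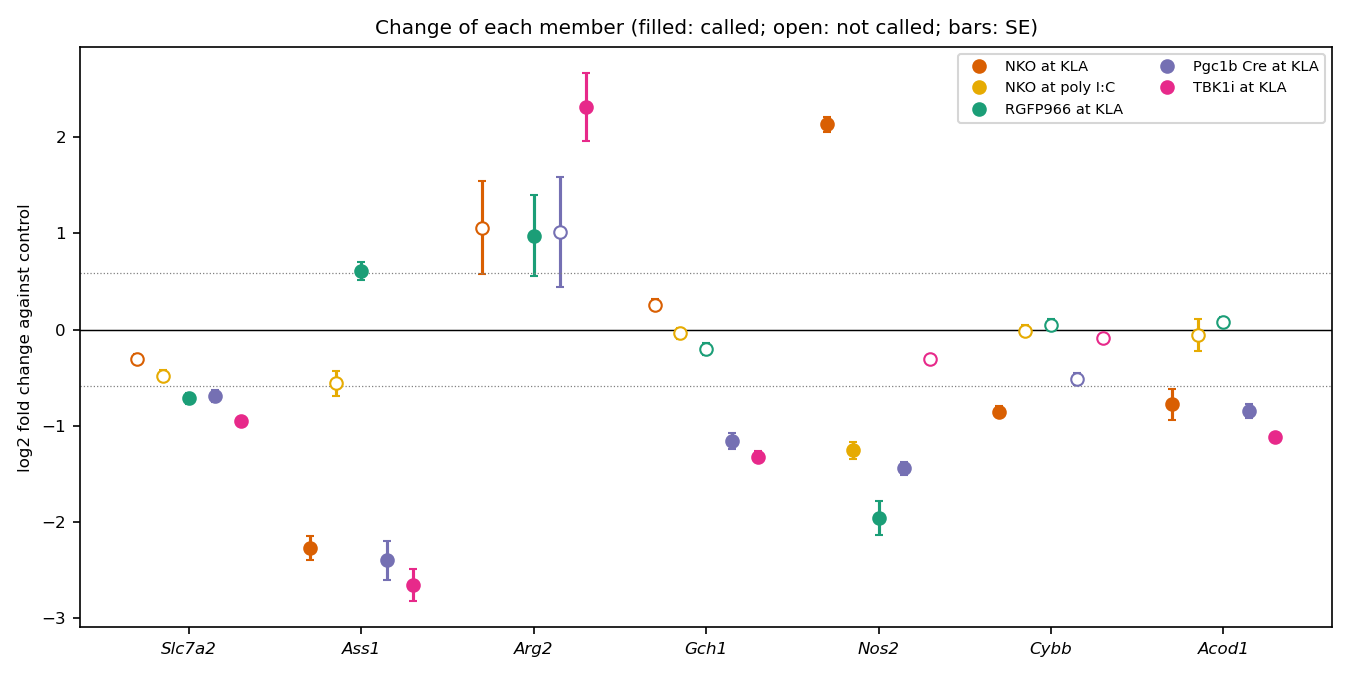
Log2 fold change of each member in NKO against WT at KLA and at poly I:C, with RGFP966, in Pgc1b flox/flox LysMCre cells and with the TBK1 inhibitor, the last 3 at KLA (points, with SE bars; filled points were called; dotted lines mark a 1.5-fold change; pairs against a group at 3 counts or fewer are left out). Ass1 is lower in 3 of the 4 KLA comparisons, and Nos2 takes both directions.

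Set side by side, the 4 perturbations at KLA, each with control libraries of its own, touched the members unevenly. Ass1 changed by -2.27, 0.61, -2.40 and -2.65 on the log2 scale in NKO, RGFP966, Pgc1b LysMCre and TBK1 inhibition, and Nos2 by 2.13, -1.96, -1.44 and -0.30. Gch1 gave 0.26, -0.20, -1.16 and -1.32, and Slc7a2 -0.31, -0.72, -0.69 and -0.95. The cofactor gene and the transporter were thus called lower together with Pgc1b LysMCre and TBK1 inhibition, and the transporter alone with RGFP966. Cybb was called only in NKO (-0.85, then 0.052, -0.51 and -0.086). Differences between the tables were not tested.

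The wider pathways were read from gene lists, against all tested genes, of which KLA raised 25.4% and lowered 32.3% in WT. Of 12 genes for nitric oxide synthases and tetrahydrobiopterin, 9 were tested in the NCoR table, and KLA raised 0 and lowered 5 of them in WT cells (median -2.06). Spr, sepiapterin reductase, the last enzyme of tetrahydrobiopterin synthesis, fell from 24.2 to 5.78 CPM (-2.06 ± 0.18), and Nostrin, a trafficking factor of the endothelial synthase, from 23.8 to 5.70 CPM (-2.06 ± 0.18). Gch1 and Nos2 thus rose while these fell. In NKO against WT at KLA, 4 of the 9 were higher and 2 lower (40.0% of all genes called), with Spr (1.51 ± 0.19) and Nosip (1.13 ± 0.11) higher and Nostrin (-0.93) and Pts (-0.78), which follows Gch1 in the synthesis, lower. With RGFP966, 6 were tested, Nostrin was higher (1.38) and Qdpr, which regenerates the cofactor, lower (-0.88). In Pgc1b LysMCre cells, 1 of 6 was higher, Nostrin (0.59), and TBK1 inhibition lowered Pts (-0.65), where 25.4%, 26.1% and 33.3% of all genes were called in these 3 comparisons. IL4 changed none of the 9 in WT by edgeR, of which 2 had an unadjusted p under 0.05.

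Among 24 genes of arginine, ornithine and polyamine metabolism, 21 were tested, and KLA raised 7 and lowered 5 in WT (25.4% and 32.3% of all genes). Slc7a1 (2.16 ± 0.13) and Slc7a7 (2.07 ± 0.092, from 25.8 to 108 CPM), both carriers of cationic amino acids, rose most. IL4 raised 3, led by Arg1 and by Sat1 (0.71), the enzyme that acetylates polyamines, and lowered Smox (-0.70) and Azin1 (-0.61), against 6.63% and 6.46% of all genes. In NKO at KLA, 6 were higher and 4 lower than in WT (40.0% of all genes). Pycr1, an enzyme of proline synthesis, was at 0 in WT and 2.45 CPM in NKO, and Slc7a7 fell from 108 to 48.4 CPM (-1.16 ± 0.087). Odc1, ornithine decarboxylase, the entry to polyamines, was lower with RGFP966 (-1.09 ± 0.13) and higher in Pgc1b LysMCre cells (0.88 ± 0.094) and with TBK1 inhibition (1.27 ± 0.096). Srm, spermidine synthase, was higher in the last 2 (1.08 and 1.01). In the 3 inhibitor or Pgc1b comparisons, 4, 3 and 4 genes of the list were higher and 2, 1 and 1 lower, of 18, 19 and 19 tested (25.4%, 26.1% and 33.3% of all genes), with Slc7a7 (-0.71), Smox (-0.99) and Sat1 (-1.26) among the lower.

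Of 25 genes of itaconate and the tricarboxylic acid cycle, all tested, KLA raised 3 and lowered 6 in WT (25.4% and 32.3% of all genes). Cs, citrate synthase, rose from 163 to 349 CPM (1.10 ± 0.058) and Idh1, which consumes isocitrate in the cytosol, fell from 311 to 69.3 CPM (-2.17 ± 0.069). Clybl, which takes part in clearing the itaconate product citramalyl-CoA, fell by 1.35 ± 0.25. In NKO at KLA, 11 genes of the list were higher and 1 lower than in WT, where 40.0% of all genes were called (median 0.51 against 0.07 over all genes), with Mpc1, a subunit of the mitochondrial pyruvate carrier, from 4.04 to 25.2 CPM (2.63 ± 0.21), Idh2 up by 1.69 ± 0.12 and Idh1 down by 0.94. Idh1 was higher in Pgc1b LysMCre cells (0.77) and with TBK1 inhibition (0.94), 3 and 2 genes being higher and 0 and 1 lower there, and RGFP966 lowered only Suclg2 (-1.09) and raised none. Of all tested genes, 26.1%, 33.3% and 25.4% were called with Pgc1b LysMCre, TBK1 inhibition and RGFP966.

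For the NADPH oxidase, 9 of 15 listed genes were tested in the NCoR table, and KLA raised 4 and lowered 2 in WT (25.4% and 32.3% of all genes). Nox1, a catalytic subunit related to Cybb, rose from 3.29 to 48.99 CPM (3.89 ± 0.16) and Rac2, the GTPase that activates the phagocyte enzyme, from 322 to 1057 CPM (1.72 ± 0.053). IL4 lowered 3 (6.46% of all genes), with Nox1 (-1.75) and the cytosolic subunit Ncf1 (-0.84) beside Cybb. In NKO at KLA, Cyba, the membrane partner of Cybb, was higher (0.70 ± 0.055) whereas Hvcn1, the proton channel that balances the charge the oxidase moves, was lower (-1.68 ± 0.079). Hvcn1 was called in all 4 perturbations at KLA, where 40.0%, 25.4%, 26.1% and 33.3% of all genes were, lower in NKO and higher with RGFP966 (1.70 ± 0.061), in Pgc1b LysMCre cells (0.64) and with TBK1 inhibition (1.16 ± 0.042).

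Likeness of pattern was measured as Pearson's r over the 12 group means of log2 CPM in the NCoR table, among 11011 genes, as a description. Nos2 was closest to Rapgef2 (0.994) and Fbxw11 (0.992), Acod1 to Rcn1 (0.992), Cxcl10 (0.991) and Naa25 (0.989), and Gch1 to Slc25a22, Papd7 (both 0.993) and Prpf38a. Slc7a2 was nearest to Zbtb5 (0.973), Gm21948 and Il4i1 (0.963), Cybb to Cpne3 (0.989), Psme2b and Samd9l, and Ass1, after the row Gm5424 that shares its reads, to AI662270 (0.972) and Cacybp. Arg2 had no gene above 0.92 (Phgdh 0.9198, then Tfpt and Cfp). Among the members, r was 0.976 for Acod1 and Gch1, 0.973 for Nos2 and Gch1, 0.936 for Nos2 and Acod1, but 0.143 for Slc7a2 and Ass1, and between -0.119 and 0.244 for Arg2 with each other member. The 12 points share the genotypes, stamps and ligands described above.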

How the data were processed

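Mouse BMDM RNA-seq libraries (44, in 22 groups of 2) were analysed from 4 tables of raw read counts as deposited by the authors, who aligned single-end reads to mm10 with STAR and counted exon reads per RefSeq transcript with HOMER, without normalization. Members were found by symbol, and the members and gene lists were chosen with earlier results of these data known. Named genes were the members, the 3 most similar genes of each, up to 2 called genes each way per list and comparison, the paralogs Arg1 and Slc7a1 and the label-checking genes, of which some are not reported here. Each table was fitted with all its groups in edgeR 4.0.16 (R 4.3.3), with filterByExpr (minimum count 10), TMM scaling and the robust quasi-likelihood F-test, 2-sided, Benjamini-Hochberg adjusted over 12196 to 13407 genes, for 32 comparisons. A call needed an adjusted p under 0.05 and a fold over 1.5. SEs are those the F statistic implies. An exact permutation test of 2 against 2 cannot go below p = 0.333, so tests rest on dispersion shared across genes. Where libraries of 2 groups are said not to overlap, no share over all genes is given. A group with 3 counts or fewer in each library gave lower bounds. DESeq2 1.42.0, other scaling and filters, left-out libraries and a replicate block were alternatives. The depth per library (8.323 to 16.78 M counts) covers counting error only. ChIP-seq of the study was not used here. Promoters came from RefSeq (GRCm38.p6).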

Additional observations from a re-analysis of the deposited data

Results flagged for a closer look

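The response to a ligand differed between the genotypes, by the interaction term of the same fits, for 10 pairs of a member and a comparison. For NKO, Acod1 responded more than in WT to KLA (log2 difference 1.86, adjusted p = 0.025), to RANKL (3.76, adjusted p = 0.000373) and to poly I:C (2.58, adjusted p = 0.0175). In each case the NKO vehicle libraries were lower (1.08 and 1.14 CPM) than the WT ones (2.82 and 11.1 CPM), and the treated level was higher in NKO with RANKL, lower with KLA and not called with poly I:C. Without WT vehicle replicate 2 the KLA difference was 0.56 (adjusted p = 0.15), and the KLA and poly I:C calls are also lost without either NKO vehicle library. Arg2 responded more to KLA in NKO (2.70, adjusted p = 0.00706), at levels under 3.2 CPM, and Ass1 responded less (-1.15, adjusted p = 0.00613). Of all tested genes, 36.9%, 14.2% and 3.24% were called for the interaction with KLA, RANKL and poly I:C. For the first of these, genotype cannot be told apart from stamp and sex.

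With Pgc1b LysMCre the KLA response was smaller for Nos2 (-3.24, adjusted p = 0.00046), Ass1 (-1.95, adjusted p = 3.21e-05), Gch1 (-1.58, adjusted p = 9.96e-12), Slc7a2 (-1.12, adjusted p = 1.07e-08) and Acod1 (-0.94, adjusted p = 0.00049), 5 of 7 members against 22.8% of tested genes. The Nos2 value rests on control vehicle libraries of 0 and 3 counts, at the limit of 3 counts, and is no bound. For Acod1 the value without LysMCre vehicle replicate 2 was -0.50, under the fold threshold. The libraries of this table share 1 stamp and 1 sex.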

How the results depend on the processing

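Across 118 pairs of member and comparison that were called, 1330 repeats under the alternatives kept the direction in each case, 1282 with the call and 48 without it, spread over 21 pairs. Without the fold threshold the number of members called rose for RANKL in WT from 2 to 5, IFNβ in WT from 1 to 4, IL4 in NKO from 1 to 2, NKO at poly I:C from 1 to 3, NKO at IFNβ from 0 to 1, and for the interactions of NKO with KLA from 3 to 5, RANKL from 1 to 2, poly I:C from 1 to 3, IFNβ from 0 to 1 and IL4 from 0 to 1. That setting also added Cybb for RANKL in NKO, NKO at vehicle, NKO at RANKL, and Pgc1b LysMCre at KLA with its interaction. It added Slc7a2 for IFNβ in NKO, Gch1 and Slc7a2 for NKO at KLA, Gch1 for RGFP966, and Nos2 and Cybb for TBK1 inhibition. For the settings that follow, smaller relative changes of the counts are not all listed. With only the compared groups fitted, the number of members called was 1 for RANKL in WT, 2 for IL4 in NKO, 1 for NKO at vehicle and 0 for the interactions with RANKL and poly I:C. DESeq2 gave 2 for IL4 in NKO, 2 for NKO at poly I:C, 1 each for the interactions with IFNβ and IL4, and 2 for RGFP966, called Acod1 in IL4 WT and Nos2 in the interaction with KLA, and lost Arg2 for poly I:C in WT and KLA in the RGFP966 table (adjusted p = 0.0693 and 0.0681), and RLE scaling 2 for NKO at poly I:C and 2 for RGFP966. NKO KLA against Pgc1b flox/flox KLA in the joint fit gave 3, where the other 3 controls gave 5 to 6. With raw library totals, 4 of 7 members kept the group of highest level. Dropping the fold threshold cannot lower a count for any set of genes. The shares of all genes called under these settings, or without single libraries, are not given here. The counts therefore describe the members only. Causes were not tested.

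Leaving out 1 library at a time gave 1 to 3 members for IFNβ in WT, 1 to 4 for IL4 in WT, 3 to 5 for RANKL in NKO, 0 to 2 for NKO at vehicle, 1 to 2 at poly I:C and 0 to 1 at IFNβ, and 2 to 4, 1 to 2, 0 to 2, 0 to 1 and 0 to 1 for the interactions of NKO with, in turn, KLA, then RANKL, then poly I:C, IFNβ and IL4. It gave 2 to 3 for RANKL in WT and 3 to 3 for RGFP966. Directions turned only for uncalled values. The log2 ranges without a library were, for Arg2, -0.65 to 0.10 (IFNβ, WT), -0.30 to 0.58 (IFNβ, NKO), -0.82 to 0.70 (poly I:C, NKO), -1.48 to 0.50 (NKO at RANKL), -0.053 to 0.85 (interaction with IFNβ), -1.71 to 0.58 (Pgc1b LysMCre vehicle) and -0.024 to 0.80 (KLA in DMSO). For Nos2 they were -2.94 to 4.30 (IL4, WT), -0.15 to 0.34 (NKO at IFNβ), -4.30 to 2.13 (NKO at IL4), -1.26 to 2.57 (interaction with poly I:C) and -2.18 to 5.07 (with IL4), for Acod1 -1.68 to 0.29 (IL4, WT), -0.13 to 0.038 (NKO at IFNβ) and -0.34 to 0.46 (Pgc1b LysMCre vehicle), for Gch1 -0.16 to 0.079 (IL4, WT), -0.027 to 0.21 (NKO at vehicle) and -0.092 to 0.017 (NKO at poly I:C), for Ass1 -0.10 to 0.057 (IL4, NKO), for Slc7a2 -0.46 to 0.078 (NKO at RANKL) and -0.52 to 0.022 (interaction with RANKL), and for Cybb -0.039 to 0.013 (NKO at poly I:C). Cybb with RGFP966 was -0.014 with RLE scaling and with DESeq2. Arg2 has no value with a filter at 5 CPM.

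Replicate numbers are shared between groups in the labels, but same-numbered libraries did not deviate together (r from -0.0596 to 0.0591 over 66 pairs in the NCoR table, 0 pairs over 0.1 in any table). With the replicate number as a block, the members called with RGFP966 were 3 in place of 4, Arg2 being lost (0.97, adjusted p = 0.0597), and no other count of members changed.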
